A study of Mus musculus with 8 samples.

Results

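Mov10 and 9 genes of the RNA silencing and RNA decay machinery were followed in mouse muscle stem cells, which lie along muscle fibres and rebuild them after injury, with and without reduced RhoA. The 10 genes are Mov10, the Argonaute genes Ago1, Ago2, Ago3 and Ago4, Dicer1, Drosha, Dgcr8, Tnrc6a and Upf1. All 10 were found by symbol among 57180 genes in the count table, and all 10 passed the filter on low counts that left 15660 genes. Mov10 was chosen because its level was higher in the RhoA samples, so its difference between the groups is given as a description without a test. The other 9 were chosen by family and function.

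The cells were sorted by flow cytometry and used fresh. The 4 controls (replicates 2, 5, 7 and 8) are labelled wild type. The 4 other samples (replicates 5, 6, 7 and 8), called RhoA het here, are titled as heterozygous for RhoA, written as SC-RhoAfl/+ in the series' design, and entered in the genotype field as a knockdown. The labels used here name neither the Cre driver nor the age or sex of the mice, nor whether animals were pooled, and p-values therefore measure the spread between these samples.

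In the microRNA pathway, Drosha and its partner Dgcr8 cut hairpins out of primary transcripts in the nucleus, and Dicer1 trims them to short duplexes in the cytoplasm. An Argonaute protein holds 1 strand of the duplex as a guide to target mRNAs, and Tnrc6a (GW182) links the Argonaute to the enzymes that shorten and decay those mRNAs. Mov10 is an RNA helicase that associates with Argonaute complexes, restricts retroelements and is known as inducible by interferon. Upf1, a related helicase, is the central factor of nonsense-mediated decay and has been found together with Mov10. Processing of microRNAs by Dicer1 is known to be needed for muscle stem cells to remain quiescent.

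Mov10 was the member whose data set it apart, so the sequence before its start site is shown. RefSeq lists 2 starts for Mov10, 258 bases apart, and the 250 bases before the upstream start (GRCm38.p6, chr3:104818564-104818813, minus strand, 5′ to 3′) are given with the longest CA repeat, 12 units, in capitals.
Mov10: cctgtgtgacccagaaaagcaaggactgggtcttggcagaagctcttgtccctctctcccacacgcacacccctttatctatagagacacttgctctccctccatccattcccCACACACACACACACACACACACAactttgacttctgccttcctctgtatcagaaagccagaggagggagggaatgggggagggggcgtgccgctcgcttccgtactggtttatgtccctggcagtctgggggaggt
This stretch is 56% G and C and holds the repeat 137 bases before the start. Windows from 250 bases before to 50 bases after the start were listed for 9 of the 10 genes, all but Ago2, as 11 windows, and were searched on both strands. Neither Mov10 window held the core of the interferon-stimulated response element (GAAA, any 2 bases, GAAA, in 3.44% of 32851 mouse promoter windows), the gamma-activated site (TTCNNNGAA, 8.30%) or the CArG box of serum response factor (1.63%), nor did the windows of the other members. GC boxes (GGGCGG) were found in 7 of the 11 windows, against 35.7% of all windows. These belonged to 6 of the 9 genes, namely Ago1, Ago3, Ago4, Dicer1, Dgcr8 and Upf1. Mov10, Drosha and Tnrc6a had no GC box there. CCAAT boxes (CCAAT) were found in 5 of the 11 windows, against 37.4% of all windows. These belonged to 4 genes, Ago1, Dicer1, Drosha and Dgcr8. Neither Mov10 window held a CCAAT or TATA box (TATAAA, 13.6% of all windows). Matches of different motifs may overlap, and a match of letters is not a shown binding site.

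Each library held 19138763 to 25606342 fragments assigned to genes. Levels are given as CPM, counts scaled to a common library size with TMM factors. Rhoa itself averaged 325 ± 46.3 CPM among controls against 265 ± 14.4 CPM (SD, n = 4 each) in RhoA het, with overlapping groups (log2 fold change -0.29, SE 0.13; edgeR's unadjusted p 0.0495, adjusted p 1). The summed level of 10 muscle stem cell markers, Pax7 among them, was 8952 to 15350 CPM in control and 7939 to 15673 CPM in RhoA het. RhoA het replicate 6 stood apart by its endothelial markers, whose sum was 673 CPM against at most 162 CPM in any other library, with 10 of 10 highest there, and by its erythroid markers, at 319 CPM against at most 143 CPM. Endothelial markers summed to 70.3 to 162 CPM in control and erythroid markers to 1.86 to 143 CPM. Sums of immune markers were 119 to 358 CPM in control and 94.5 to 322 CPM in RhoA het, those of fibro-adipogenic markers 2425 to 10828 CPM and 4318 to 9109 CPM, those of myofibre markers 160 to 580 CPM and 111 to 544 CPM, and those of mural and Schwann markers 765 to 1314 CPM and 736 to 2437 CPM. Other libraries stood apart as well. RhoA het replicate 8 was highest in mural and Schwann markers, at 2437 CPM against at most 1582 CPM elsewhere. Control replicate 5 had 10828 CPM of fibro-adipogenic markers beside 9140 CPM of muscle stem cell markers. RhoA het replicate 5 had 9109 CPM beside 7939 CPM. No marker was at 0 in every library. Reads of 4 Y-linked genes were frequent in control replicate 2 (14358 fragments) and RhoA het replicate 6 (14659 fragments), whereas no other library exceeded 2. Xist, a transcript of female cells, had 5 and 7 fragments in these libraries and 3539 to 5188 in the others. By these genes the 6 libraries numbered 5, 7 and 8 are female, and RhoA het replicate 6 is the only male RhoA het library. Its sex and its marker levels cannot be told apart when it is left out.

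Mov10 (ENSMUSG00000002227.16; mm39 chromosome 3, 104702152 to 104725879, minus strand) was the only member whose control and RhoA het libraries did not overlap. Control replicates 2, 5, 7 and 8 had 28, 30, 41 and 29 fragments of Mov10, and RhoA het replicates 5, 6, 7 and 8 had 77, 59, 91 and 67. Scaled to library size, the control libraries were at 1.48, 1.39, 1.54 and 1.36 CPM and the RhoA het libraries at 3.62, 2.80, 4.08 and 3.44 CPM. The lowest RhoA het library, replicate 6, was 1.83 times the highest control library, replicate 7. Exact Poisson 95% intervals, which cover counting error only, reached at most 2.14 CPM in control (replicate 2) and began at 2.14 CPM in RhoA het replicate 6, an overlap of less than the rounding. The intervals of the other 3 RhoA het libraries began at 2.67 CPM or above. Mov10 was chosen for this difference and the intervals leave out the spread between samples, so comparing them across groups is no test.

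The mean of Mov10 was 1.44 CPM (SD 0.0796, n = 4) among controls against 3.49 CPM (SD 0.527, n = 4) in RhoA het, a log2 fold change of 1.27 (SE 0.23), or 2.41-fold. The deposited TPM values, which are adjusted for gene length, were 0.807 ± 0.113 and 2.06 ± 0.382 (SD, n = 4 each). These values chose the gene. Groups did not overlap, with RhoA het higher, for 1.02% of the genes tested, and 149 genes had a larger log2 fold change than Mov10, 14 of them without overlap. Its control libraries lay close together: their coefficient of variation was 5.52%, where counting error alone gives 17.9% at this depth. In RhoA het it was 15.1% against 11.7% from counting. Replicate numbers 5, 7 and 8 occur in both groups, and the same-numbered differences of log2 CPM for Mov10 were 1.32, 1.36 and 1.28. Without RhoA het replicate 6 the log2 fold change was 1.36, and in the 6 libraries numbered 5, 7 and 8 it was 1.35. Over all ways of leaving out 1 library it lay between 1.18 and 1.36.

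**Figure D1:**
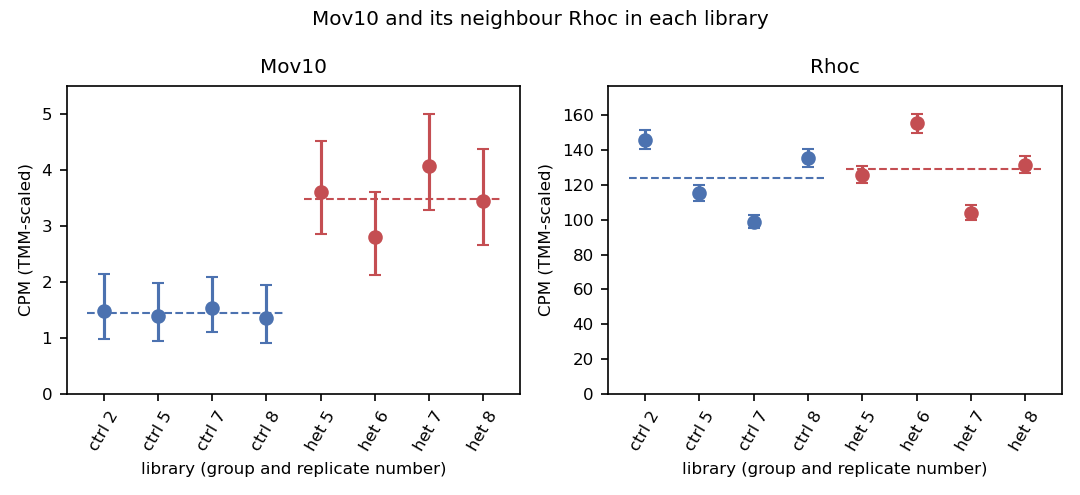
CPM of Mov10 (left) and of the adjacent gene Rhoc (right) in each library, with exact Poisson 95% intervals for counting error as bars and group means as dashed lines. Mov10 lies at 1.36 to 1.54 CPM in the control libraries and at 2.80 to 4.08 CPM in the RhoA het libraries, while the groups overlap for Rhoc.

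The neighbourhood of Mov10 was examined because the counts do not use strand. No annotated gene overlapped Mov10. Its nearest neighbour was Rhoc (mm39 chromosome 3, 104695691 to 104701775, plus strand), which encodes a close relative of RhoA. Rhoc runs towards Mov10 and ends 376 bases before the last exon of Mov10. Rhoc averaged 124 ± 21.1 CPM among controls against 129 ± 21.1 CPM (SD, n = 4 each) in RhoA het (log2 fold change 0.062, interval -0.31 to 0.43, edgeR unadjusted p 0.714, adjusted p 1). RhoA het replicate 6 had the highest Rhoc level of all 8 libraries, 155 CPM, and the lowest Mov10 level among the RhoA het libraries. Whether reads from Rhoc entered the Mov10 counts was not tested. On the other side, 4215 bases away, lay Capza1, which encodes a subunit of the actin capping protein. Capza1 was at 108 ± 8.02 CPM and 110 ± 14.6 CPM (log2 fold change 0.026, interval -0.26 to 0.31, edgeR unadjusted p 0.840, adjusted p 1). Of 12 genes within 100000 bases, 7 passed the filter, and none of the 7 had an unadjusted p under 0.05 in edgeR over all 8 libraries. The smallest was that of Gm42659, 17866 bases from Mov10, at 6.76 ± 1.91 CPM and 9.15 ± 1.42 CPM (SD, n = 4 each; log2 fold change 0.44, edgeR's unadjusted p 0.0954, adjusted p 1). With the replicate block Gm42659 was at 0.54 (edgeR's unadjusted p 0.0401, adjusted p 0.921).

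The Argonautes came first among the other members. Ago2 (ENSMUSG00000036698.12; mm39 chromosome 15, 72967693 to 73056784) encodes the Argonaute that can cut its target. It was at 86.6, 86.4, 60.6 and 77.9 CPM in control replicates 2, 5, 7 and 8 and at 76.4, 101, 76.1 and 80.8 CPM in RhoA het replicates 5, 6, 7 and 8. The groups overlapped, with control replicate 7 lowest and RhoA het replicate 6 highest. Ago2 had a log2 fold change of 0.10 (SE 0.15, interval -0.24 to 0.44; edgeR's unadjusted p 0.519, adjusted p 1; two-sided exact permutation p 0.543, n = 4 each), and it was -0.0029 without the control library and -0.0033 without the RhoA het library just named.

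Ago1, Ago3 and Ago4, whose products guide repression mainly without cutting, lie next to each other on the minus strand of mm39 chromosome 4, at 126328805 to 126362376, 126225497 to 126323349 and 126383334 to 126427265. Ago3 was at 26.6, 28.4, 32.9 and 23.6 CPM in control replicates 2, 5, 7 and 8 and at 34.3, 37.2, 29.8 and 29.7 CPM in RhoA het replicates 5, 6, 7 and 8. Among the members named by family it had the highest log2 fold change, 0.23 (SE 0.14, interval -0.085 to 0.55; edgeR unadjusted p 0.133, adjusted p 1; two-sided exact permutation p 0.114, n = 4 each). Its groups overlapped through control replicate 7, which lay above RhoA het replicates 7 and 8. Ago1 was at 6.50, 9.29, 8.06 and 6.81 CPM in the controls and at 8.08, 7.80, 6.95 and 5.86 CPM in RhoA het, in the same order of replicates. It was lower in RhoA het in each same-numbered pair, with differences of -0.20, -0.21 and -0.21 on the log2 CPM scale. All 8 libraries gave Ago1 a log2 fold change of -0.096 (SE 0.19, interval -0.53 to 0.34; edgeR's unadjusted p 0.632, adjusted p 1). Ago4 was the least abundant, with 1.80, 1.53, 0.750 and 2.44 CPM in the controls and 1.97, 1.43, 2.38 and 0.823 CPM in RhoA het. Both groups held a library near 0.8 CPM and a library near 2.4 CPM, so the spread within the groups was larger than the difference. The log2 fold change was 0.025 (SE 0.43), and its interval from -0.93 to 0.98 allows a change of up to 97.6% upward or 47.6% downward. Nor did the paired differences share a direction: the same-numbered differences of Ago4 on the log2 CPM scale were 0.34, 1.55 and -1.47, while those of Ago3 were 0.27, -0.14 and 0.33.

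The enzymes that make microRNAs had closely similar group means. Dicer1 (mm39 chromosome 12, 104654001 to 104718211) was at 20.1, 16.1, 16.2 and 19.4 CPM in control replicates 2, 5, 7 and 8 and at 17.8, 19.2, 18.2 and 18.5 CPM in RhoA het replicates 5, 6, 7 and 8. All RhoA het libraries lay inside the range of the controls. The groups differed by a log2 fold change of 0.038 (SE 0.13, interval -0.26 to 0.34; edgeR's unadjusted p 0.778, adjusted p 1), which limits a change to between a loss of 16.5% and a gain of 26.3%. The RhoA het libraries of Dicer1 varied by 3.20%, less than the 5.09% that counting gives, as did Mov10 in control. In the other 18 combinations of gene and group, the spread was larger than counting error. Drosha (mm39 chromosome 15, 12824901 to 12935377) was at 42.7, 47.2, 56.1 and 41.9 CPM in the controls and at 40.7, 44.3, 49.4 and 49.6 CPM in RhoA het. The highest library, control replicate 7, and the lowest, RhoA het replicate 5, gave it the log2 fold change of -0.031 (SE 0.13, interval -0.33 to 0.26; edgeR unadjusted p 0.816, adjusted p 1). Dgcr8 (mm39 chromosome 16, 18071812 to 18107110), the RNA-binding partner of Drosha, was at 9.19, 10.6, 6.90 and 9.72 CPM in the controls and at 8.97, 6.09, 11.3 and 10.6 CPM in RhoA het. RhoA het replicate 6 had the lowest level and RhoA het replicate 7 the highest, which left a log2 fold change of 0.020 (SE 0.23, interval -0.50 to 0.54; edgeR's unadjusted p 0.932, adjusted p 1). Dgcr8 shares 825 of its 7696 exon bases with Trmt2a on the opposite strand, so its unstranded count is uncertain there.

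Tnrc6a and Upf1 act on target RNAs. Tnrc6a (mm39 chromosome 7, 122723108 to 122794519) was at 22.8, 32.7, 29.7 and 24.7 CPM in control replicates 2, 5, 7 and 8 and at 31.2, 25.8, 25.5 and 30.7 CPM in RhoA het replicates 5, 6, 7 and 8. Every RhoA het library lay inside the control range (log2 fold change 0.043, SE 0.15, interval -0.30 to 0.38; edgeR unadjusted p 0.782, adjusted p 1). Upf1 (mm39 chromosome 8, 70784175 to 70805928) was at 21.7, 16.1, 11.6 and 16.7 CPM in the controls and at 19.06, 12.1, 14.6 and 15.3 CPM in RhoA het. Here too the RhoA het libraries lay inside the control range, at a log2 fold change of -0.11 (SE 0.22, interval -0.59 to 0.37; edgeR's unadjusted p 0.620, adjusted p 1). In the 6 libraries numbered 5, 7 and 8 it was 0.12, the opposite sign.

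**Figure D2:**
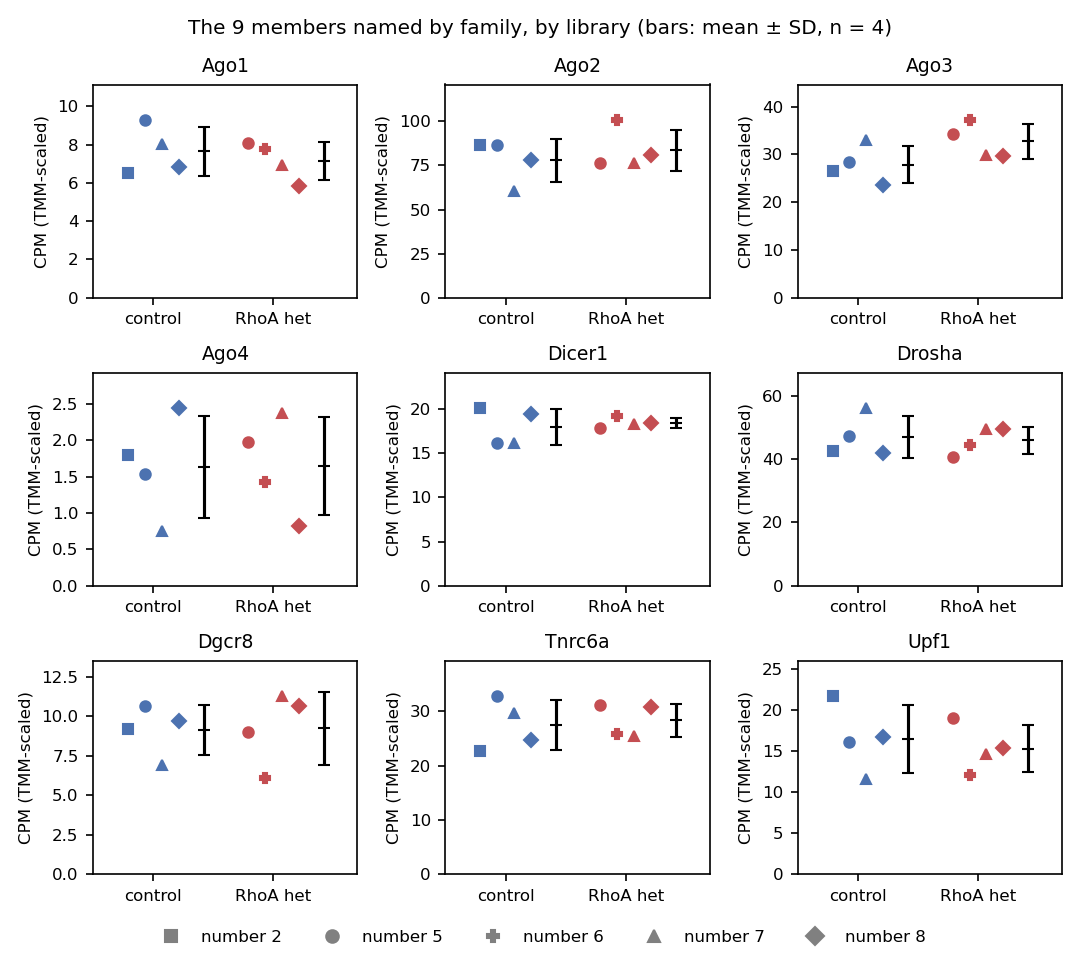
CPM of the 9 members named by family in each library (symbols mark the replicate number), with the mean and SD of each group (n = 4) as black bars. The groups overlap in every panel, and Ago4 and Dgcr8 have libraries far apart within both groups.

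Of the 9 members named by family, 0 passed an adjusted p under 0.05 in edgeR, where 0% of all 15660 genes tested did, and 0 passed with the replicate numbers as a block, where 0.0127% did. An unadjusted p under 0.05 was reached by 0 of the 9, against 2.38% of all genes (1.68% higher and 0.696% lower in RhoA het). Groups did not overlap for 0 of the 9, against 1.81% of all genes (1.02% higher and 0.792% lower). The median log2 fold change of the 9 was 0.025, beside -0.00071 over all genes tested. Over the alternatives, DESeq2 and limma among them, the lowest adjusted p of any of the 9 was 0.854.

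**Figure D3:**
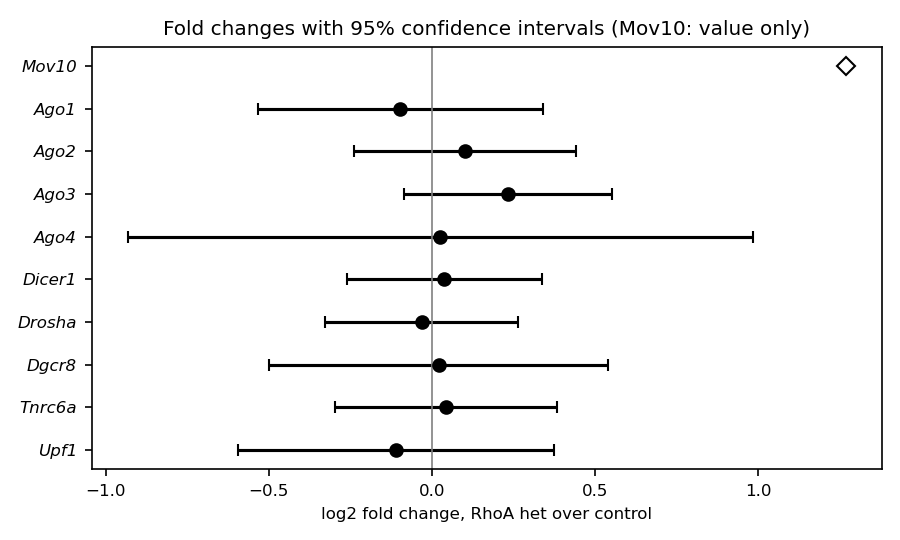
Log2 fold change of RhoA het over control for each member, with edgeR 95% confidence intervals; Mov10 was chosen on this value and is shown without one. Mov10 is at 1.27, and the intervals of the other members include 0.

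The members differed widely in level. By deposited TPM over the 8 libraries, the order was Drosha (25.3 ± 4.26), Ago2 (18.4 ± 2.72), Upf1 (11.0 ± 2.09), Tnrc6a (7.14 ± 1.52), Ago3 (5.91 ± 1.12), Dgcr8 (3.85 ± 0.938), Dicer1 (3.47 ± 0.214), Ago1 (2.96 ± 0.648), Mov10 (1.43 ± 0.719) and Ago4 (0.755 ± 0.296) (TPM, SD, n = 8). Drosha was above Ago2 and Ago2 above Upf1 in 8 of 8 libraries, and only the ranges of Ago2 and Upf1 were separate among neighbours in this order. Dgcr8 and Dicer1 could not be ordered, with Dgcr8 higher in 5 of 8 libraries, and Dicer1 was above Ago1 in 6 of 8. Ago2 was the most abundant Argonaute and Ago4 the least. Mov10 was above Ago4 in 7 of 8 libraries but stood below Ago1 in all 8, also in RhoA het. In the distribution of all genes tested, 72.3% had a lower mean TPM than Drosha, 66.5% than Ago2, 14.9% than Mov10 and 7.16% than Ago4.

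**Figure D4:**
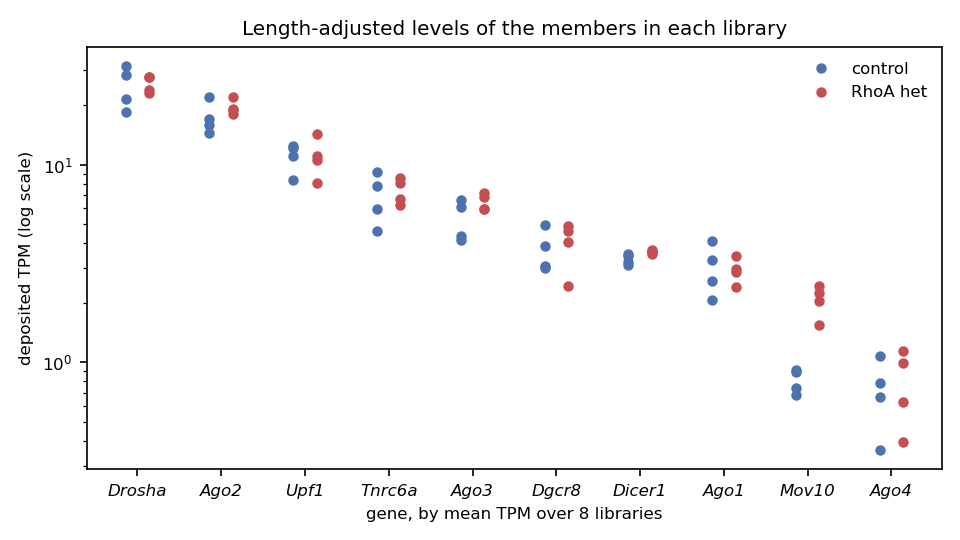
Deposited TPM (log scale) of each member in each library, ordered by the mean over 8 libraries, with control in blue and RhoA het in red. Mov10 is near Ago4 in control, at 0.807 TPM on average, and at 2.06 TPM in RhoA het, below Ago1 in every library.

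Other genes of these pathways were read from the same fit. Of 50 further genes that make, load or act with microRNAs, 46 passed the filter, and 0 of them were called or had an unadjusted p under 0.05 in edgeR. Their median log2 fold change was -0.050, with 18 of 46 above 0, beside -0.00071 over all genes. On log2(TPM + 1) values it was 0.048 with 33 of 46 above 0, but the median of all genes moved to 0.068 there, and the list lay below it under both. Without control replicate 5 the list median was 0.0096 with 25 of 46 above 0, beside 0.0032 over all genes. The smallest p belonged to Ran, the GTPase that powers export of microRNA precursors through Xpo5, at 477 ± 50.4 CPM among controls against 404 ± 47.2 CPM (SD, n = 4 each) in RhoA het (log2 fold change -0.24, edgeR unadjusted p 0.112, adjusted p 1). Of 21 nonsense-mediated decay genes, all 21 passed the filter and 0 had an unadjusted p under 0.05. Their median was -0.073, with 4 of 21 above 0. Over the alternatives it ran from -0.12 to -0.0092, with 3 to 10 of 21 above 0 (7 of 21 without RhoA het replicate 6). Magohb, of the exon junction complex that marks spliced mRNAs, had the smallest p there (13.9 ± 1.99 CPM and 11.0 ± 2.30 CPM, SD, n = 4 each; log2 fold change -0.34, edgeR unadjusted p 0.116, adjusted p 1). Over all genes tested, 7809 of 15660 had a log2 fold change above 0.

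The closest relatives of Mov10 and Upf1 were also compared. Of 9 other helicases of the Upf1-like branch, 7 passed the filter and 0 had an unadjusted p under 0.05 in edgeR, with a median log2 fold change of 0.055. This median was -0.036 in the 6 libraries numbered 5, 7 and 8, -0.041 with the replicate block (-0.019 in DESeq2) and -0.0034 without RhoA het replicate 8. Helz had the smallest p (23.7 ± 3.85 CPM and 28.3 ± 3.96 CPM, SD, n = 4 each; log2 fold change 0.26, edgeR unadjusted p 0.141, adjusted p 1). The germ line paralogue Mov10l1 had 0 fragments in all 8 libraries. Of 14 piRNA pathway genes, which silence transposons in germ cells, 4 passed the filter, and Piwil2 had the smallest p (2.25 ± 1.38 CPM and 2.97 ± 0.811 CPM, SD, n = 4 each; log2 fold change 0.39, edgeR unadjusted p 0.385, adjusted p 1). The median of these 4 genes was 0.22. It was 0.045 without control replicate 7, 0.096 without RhoA het replicate 5 and 0.10 without RhoA het replicate 8.

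Mov10 is known as a restriction factor and as an interferon-induced gene, and both groups were examined. Of 24 other genes that restrict retroelements or retroviruses, 21 passed the filter, with a median log2 fold change of 0.026 (11 of 21 above 0). The sign of this median turned without control replicate 2 (-0.015) and without RhoA het replicate 6 (-0.013). It also turned in the 6 libraries numbered 5, 7 and 8 (-0.022, 8 of 21 above 0) and with the replicate block in edgeR (-0.0078). With the block in DESeq2 the median was 0.014 (11 of 21 above 0). It rose to 0.061 without control replicate 5 and to 0.083 without RhoA het replicate 7. Atf7ip, a cofactor of the histone methyltransferase Setdb1, was the 1 gene with an unadjusted p under 0.05, at 60.6 ± 2.31 CPM among controls against 72.6 ± 4.18 CPM (SD, n = 4 each) in RhoA het (log2 fold change 0.26, SE 0.099, edgeR unadjusted p 0.0257, adjusted p 1; two-sided exact permutation p 0.0286, the smallest possible). Its groups did not overlap, which by itself fixes that exact p. Groups did not overlap, with RhoA het higher, for 1.02% of all genes tested. Without control replicate 8, RhoA het replicate 7 or RhoA het replicate 8, 0 of the 21 genes had an unadjusted p under 0.05. The same held on total counts and with no filter on low counts. With the replicate block 2 of 21 did, in edgeR as in DESeq2. In edgeR with the block, Zc3hav1 had a log2 fold change of 0.36 (unadjusted p 0.0078, adjusted p 0.679). Atf7ip was at 0.26 there (unadjusted p 0.0398, adjusted p 0.921). An unadjusted p under 0.05 with a higher level in RhoA het was found for 1.68% of all genes tested. Of 27 interferon-stimulated genes, 22 passed the filter and 0 had an unadjusted p under 0.05, while 20 of 22 had a log2 fold change above 0, with a median of 0.18. Dtx3l, a ubiquitin ligase, had the smallest p (11.3 ± 2.01 CPM and 15.0 ± 2.59 CPM, SD, n = 4 each; log2 fold change 0.41, edgeR unadjusted p 0.0560, adjusted p 1). Without RhoA het replicate 6, the library with the highest endothelial and erythroid markers, the interferon median was 0.026 with 15 of 22 above 0. In the 6 libraries numbered 5, 7 and 8 it was 0.13 with 17 of 22. It was 0.27 with 21 of 22 without RhoA het replicate 7, and 0.26 without RhoA het replicate 5 or control replicate 2. With the replicate block in edgeR, 1 of 22 genes, Stat2, had an unadjusted p under 0.05 (log2 fold change 0.35, unadjusted p 0.0225, adjusted p 0.835). Without RhoA het replicate 7, 2 of 22 did. The part of endothelial and erythroid cells, or of sex, in the interferon values was not tested. RhoA het replicate 6, the only RhoA het library with frequent Y-linked reads, also had the lowest Mov10 level of that group. In bulk samples, fewer cells of a type and less RNA per cell cannot be told apart.

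**Figure D5:**
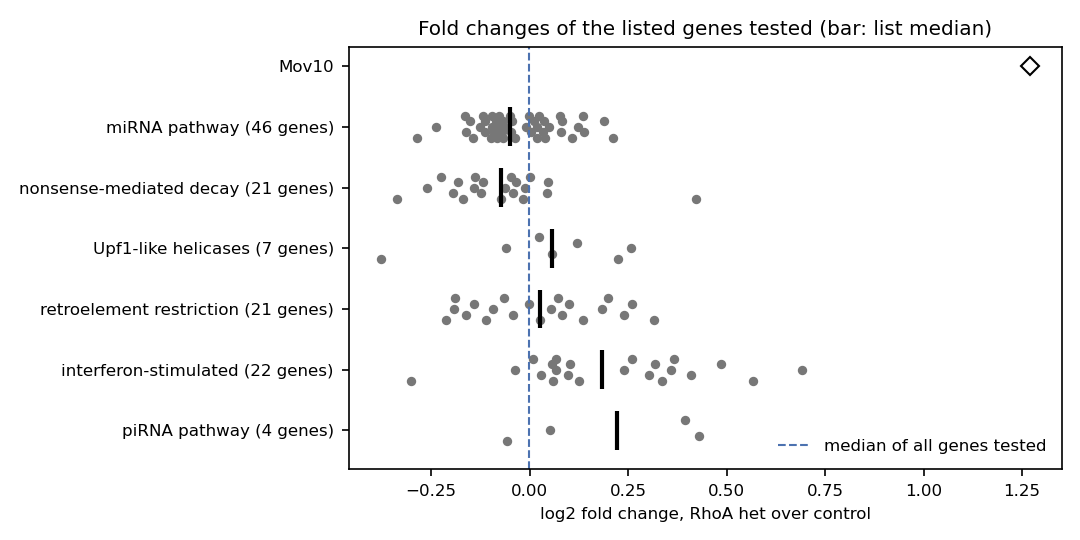
Log2 fold change of every listed gene that passed the filter, by list, with the list median as a black bar, the median of all genes tested as a dashed line and Mov10 as an open diamond. The listed genes lie between -0.38 and 0.69, and Mov10 is at 1.27.

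The genes whose libraries varied most like Mov10 within the groups were found by Pearson's r of deviations from the group means of log2 CPM over the 8 libraries, among 13630 genes averaging at least 1 CPM. They were Ebna1bp2 (r 0.979), Mbnl2 (0.973), Gm47469 (0.966), Rps6kb1 (0.963) and Gm13940 (0.956). These are the highest of many values over 8 libraries whose counts for Mov10 were small, and they are a description. Ebna1bp2 takes part in ribosome assembly, Mbnl2 regulates splicing, and Rps6kb1 encodes the ribosomal protein S6 kinase. The log2 fold changes between the groups, in the same order of 5 genes, were -0.22, 0.075, -0.0013, 0.10 and 0.75, against 1.27 for Mov10. Gm13940, the highest of them, had overlapping groups (1.55 ± 0.479 CPM and 2.61 ± 1.25 CPM, SD, n = 4 each; edgeR's unadjusted p 0.0838, adjusted p 1; log2 fold change 0.93 with the replicate block, unadjusted p 0.0116, adjusted p 0.762). Among the members, r with Mov10 ran from -0.71 for Ago2 to 0.56 for Dgcr8.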

How the data were processed

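The data are 8 RNA-seq libraries, 4 control and 4 RhoA het. Per the labels' protocols, RNA was extracted with Trizol and made into cDNA by template switching. Per the file headers, the authors made the deposited counts with featureCounts 1.6.4 (paired-end, exons by gene, GENCODE release 34, mm39) without a strand option. STAR, cutadapt and DESeq2 are named in the submitters' processing notes. The counting command named 10 alignment files, and the table holds 8 libraries; the other 2 were not analysed here. The deposited TPM equalled counts per base of summed exon length (bases), scaled per library by the authors, within a relative difference of 2e-14. Per-sample columns left unused numbered 0. Symbols (51884 of 57180) came from GENCODE release 21.

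Counts were filtered with edgeR's filterByExpr, scaled by TMM and tested with the quasi-likelihood method of edgeR 4.0.16 in R 4.3.3, all 8 libraries entering, with Benjamini-Hochberg adjustment over all genes tested and a threshold of 0.05; log2 CPM used a prior count of 2. The fit was tested on simulated counts. Intervals are 95%. Exact permutation tests ran over 70 assignments (smallest p 0.0286). Alternatives used DESeq2 1.42.0 and limma 3.58.1. Same-numbered libraries (5, 7 and 8) deviated together, with correlations of 0.544, 0.231 and 0.488 over genes, so a replicate block over these 3 pairs was an alternative; what a number stands for is not given in the labels. The members and lists were chosen with earlier results of these data known. Named genes were the members, Rhoa, the genes nearest Mov10, up to 3 per list with an unadjusted p under 0.05 or else the 1 with the smallest, and the 5 most like Mov10.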

Additional observations from a re-analysis of the deposited data

How the results depend on the processing

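The number of genes called was 0 under the settings without the block, the DESeq2 Wald test included, and without each library in turn (0 to 0), with 278 to 912 genes at an unadjusted p under 0.05 (372 in edgeR, 507 in the DESeq2 Wald test). It was 2 with the replicate block over the pairs numbered 5, 7 and 8 in edgeR and 39 with the same block in DESeq2, none of them a member; the block changed no other call. For Mov10 the log2 fold change lay between 1.18 and 1.36 without each library in turn. It was 0.75 on log2(TPM + 1), a scale that shrinks differences of genes this low, and 1.24 to 1.37 under the remaining settings. With the replicate block it was 1.35. Mov10 rests on 28 to 91 fragments per library. For the members named by family, the sign changed with the setting in 7 of 9 genes. Drosha was at 0.0025 on total counts, 0.053 on log2(TPM + 1) and 0.056 on log2(TPM + 0.1), settings that moved the median of all genes to 0.042, 0.068 and 0.086, so that Drosha stayed below it. Over the 6 libraries, Tnrc6a was at -0.017 without and -0.016 with the block, but at 0.0060 with the block in DESeq2. Upf1 was at 0.12 and 0.13 (0.15 with the block in DESeq2). Without each library in turn the values ran from -0.0033 to 0.15 for Ago2, -0.22 to 0.29 for Ago4, -0.022 to 0.094 for Dicer1, -0.084 to 0.064 for Drosha, -0.098 to 0.17 for Dgcr8, -0.040 to 0.12 for Tnrc6a and -0.25 to 0.047 for Upf1. The cause was not tested. Ago1 and Ago3 kept their sign under all 18 alternatives, but Ago1 ranged from -0.23 with the replicate block to -0.0021 without control replicate 5, and Ago3 from 0.12 in the 6 libraries to 0.32 without control replicate 7. In lists, leaving out libraries was chosen after the data were seen: 3 of 7 Upf1-like helicases were above 0 in the 6 libraries, against 5 in all, and 7 of 21 nonsense-mediated decay genes without RhoA het replicate 6 and in the 6 libraries, against 4.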
